A study of Homo sapiens with 18 samples.

Results

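The polycomb repressive complex 2 (PRC2) accessory subunits described here are 7 genes, JARID2, AEBP2, PHF1, MTF2, PHF19, EPOP and LCOR, taken by name from the 62703 Ensembl genes of the expression files. All 7 were detected in every library and all passed the filter on low counts. Polyadenylated RNA of MDA-MB-231, a triple-negative breast cancer cell line of mesenchymal appearance, gave 10 distinct sequencing libraries in 5 groups of 2. Control shRNA, shEZH2 and shE2F1 cells carried a lentiviral hairpin (pLKO.1 vector, 24 h of transduction, then 72 h of selection in 2 ug/ml puromycin), and the study lists 1 hairpin sequence for each target. DMSO and GSK126 cells were not transduced and received solvent or 1 uM GSK126, an inhibitor of EZH2 that competes with S-adenosylmethionine, for 72 h. Transduction and selection are thus shared by all 3 hairpin groups, and the hairpin and drug cells were separate experiments. Libraries held 13198932 to 20055550 expected counts, and nothing in the labels says whether the 2 libraries of a group came from separate cultures, so p-values measure only the spread between these libraries.

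PRC2 places methyl groups on lysine 27 of histone H3 and holds genes silent. Its core contains a methyltransferase (EZH2 or EZH1), SUZ12, EED and the histone-binding proteins RBBP4 or RBBP7. Accessory subunits dock on SUZ12 and sort the complex into alternative forms. PRC2.2 carries JARID2 and AEBP2, which recognise ubiquitinated histone H2A. PRC2.1 carries a Polycomb-like protein (PHF1, MTF2 or PHF19), which binds unmethylated CpG-rich DNA and has a Tudor domain that reads methylated lysine 36 of histone H3, together with either EPOP, a link to elongin B and C, or PALI1, a product of the LCOR locus. The LCOR locus also encodes a shorter nuclear receptor corepressor, and gene-level counts add both products.

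Per the marker lists, the libraries had the profile of a mesenchymal, hormone receptor negative line in part. VIM, CD44, AXL and FN1 were abundant, between 51.1 and 2860 TPM (a level corrected for transcript length and library size), whereas the fifth mesenchymal marker, SPARC, did not exceed 4.26 TPM. Of 9 luminal markers, ESR1, PGR, FOXA1 and CDH1 did not exceed 4.50 TPM, and ERBB2, GATA3, EPCAM, KRT8 and KRT18 ranged from 5.86 to 1470 TPM. Marker levels were not tested for a part in any result. The targeted gene EZH2 stood at 153 and 181 CPM with control shRNA and at 52.7 and 44.8 CPM with shEZH2, where CPM are expected counts divided by the TMM-scaled library size over all 10 libraries.

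Sequences around the annotated starts of the members are shown because E2F1, the target of one hairpin, is a transcription factor that binds elements near the starts of genes. RefSeq promoters (GRCh38.p14, 250 bases before the start and 20 from it on) were found for 6 of the 7 members, 9 entries in all, and searched on both strands for an E2F-type motif, TTT followed by a pair of bases that are each C or G and then CGC. Among all 35116 promoters of this length, 1063 (3.03%) held a match. Matches stood in 3 member entries, for PHF19, MTF2 and AEBP2, and the capitals mark them. Both PHF19 entries are shown because PHF19 is the member that fell most with either hairpin, PHF1 because it fell with shE2F1 and holds no match, and the first JARID2 entry because JARID2 rose most with shEZH2. The PHF19 start whose promoter holds the match lies farther upstream than its other start, and its match runs from 152 to 145 bases before the start. In AEBP2 the match runs from 150 to 143 bases before the start, and in MTF2 from base 6 to base 13 of the transcript.
PHF19, upstream start, chr9:120877169-120877438, minus strand: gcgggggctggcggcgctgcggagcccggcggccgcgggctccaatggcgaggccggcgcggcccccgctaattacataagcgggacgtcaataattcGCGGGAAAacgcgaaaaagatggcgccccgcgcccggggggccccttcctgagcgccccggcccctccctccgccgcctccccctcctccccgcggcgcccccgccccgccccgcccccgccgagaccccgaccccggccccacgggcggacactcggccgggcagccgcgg
PHF19, downstream start, chr9:120868892-120869161, minus strand: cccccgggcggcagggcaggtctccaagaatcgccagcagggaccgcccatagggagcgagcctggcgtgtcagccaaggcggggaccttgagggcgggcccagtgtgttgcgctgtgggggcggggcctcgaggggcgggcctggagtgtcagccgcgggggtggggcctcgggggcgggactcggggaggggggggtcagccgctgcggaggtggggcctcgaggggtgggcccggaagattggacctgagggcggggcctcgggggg
MTF2, chr1:93079033-93079302, plus strand: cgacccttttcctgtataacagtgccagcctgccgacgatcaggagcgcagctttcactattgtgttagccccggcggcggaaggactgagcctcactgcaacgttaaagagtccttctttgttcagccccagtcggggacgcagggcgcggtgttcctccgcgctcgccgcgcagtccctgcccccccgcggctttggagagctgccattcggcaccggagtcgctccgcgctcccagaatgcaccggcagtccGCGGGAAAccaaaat
AEBP2, chr12:19440349-19440618, plus strand: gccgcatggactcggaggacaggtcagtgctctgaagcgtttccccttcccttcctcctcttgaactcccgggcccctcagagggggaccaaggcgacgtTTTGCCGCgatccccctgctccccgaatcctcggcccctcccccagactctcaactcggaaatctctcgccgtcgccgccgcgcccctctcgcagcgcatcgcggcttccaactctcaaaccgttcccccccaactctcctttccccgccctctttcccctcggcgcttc
PHF1, chr6:33410764-33411033, plus strand: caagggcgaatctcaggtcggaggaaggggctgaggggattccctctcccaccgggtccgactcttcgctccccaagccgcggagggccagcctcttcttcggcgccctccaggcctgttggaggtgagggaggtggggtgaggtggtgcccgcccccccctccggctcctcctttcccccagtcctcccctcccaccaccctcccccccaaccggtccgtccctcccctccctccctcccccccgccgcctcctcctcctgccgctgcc
JARID2, first start, chr6:15245819-15246088, plus strand: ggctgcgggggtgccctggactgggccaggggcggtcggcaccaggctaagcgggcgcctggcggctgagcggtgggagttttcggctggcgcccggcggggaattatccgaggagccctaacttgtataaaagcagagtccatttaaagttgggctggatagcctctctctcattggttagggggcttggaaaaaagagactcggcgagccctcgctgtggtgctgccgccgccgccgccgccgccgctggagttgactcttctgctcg
All 9 entries are rich in G and C, from 63.3% in MTF2 to 84.8% in the first LCOR entry, and hold 16 to 48 CpG pairs. A match is a description of these letters and no evidence of binding.

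**Figure D1:**
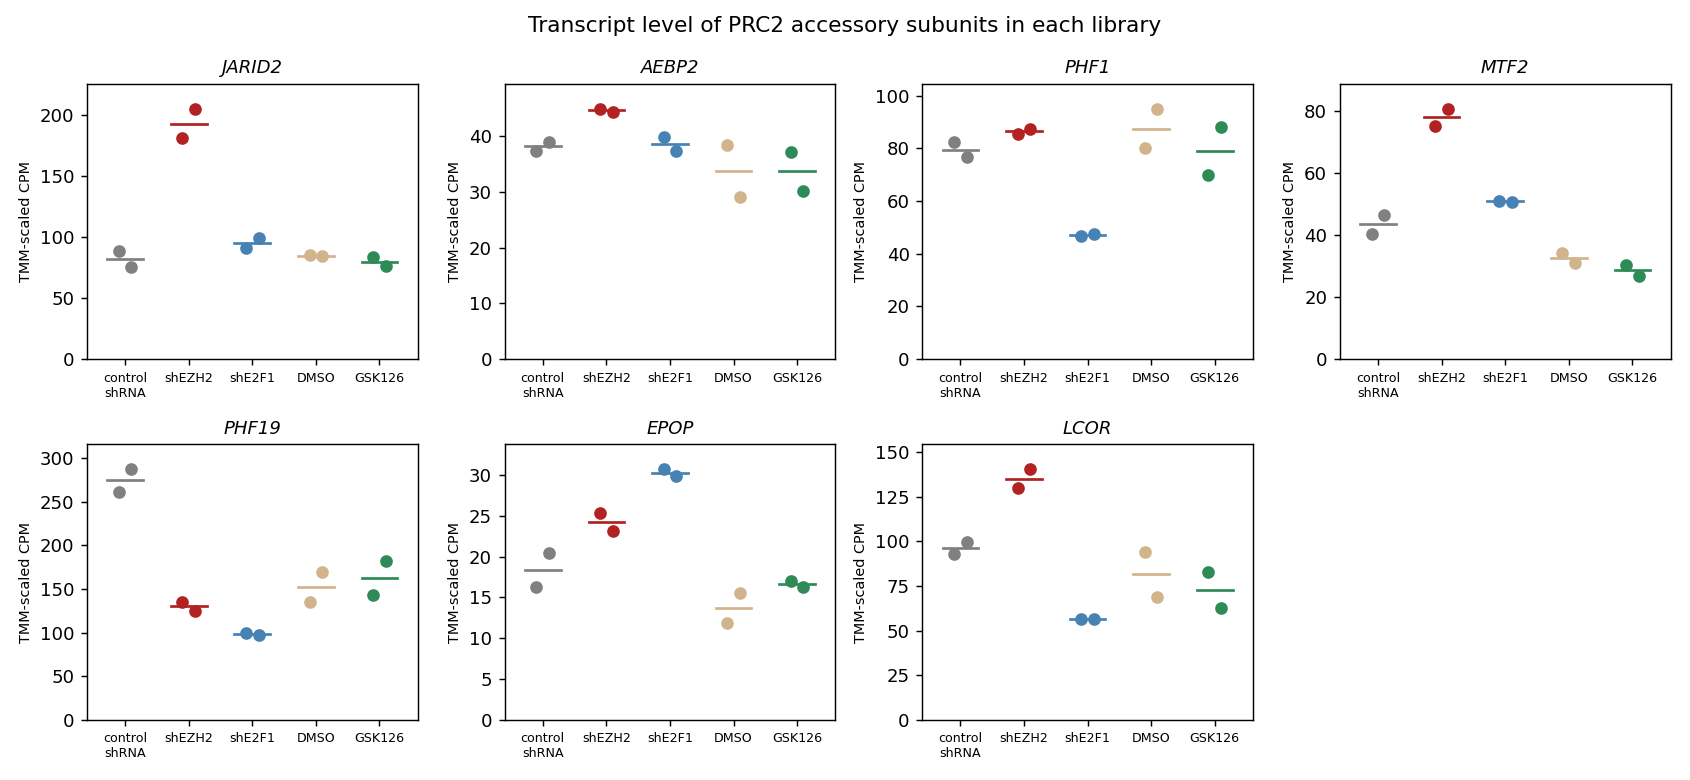
TMM-scaled CPM (y axis, from 0) of the 7 genes in each of the 10 libraries, by group (x axis). Points are libraries and bars are means of 2 libraries. JARID2 and MTF2 are highest with shEZH2, PHF19 is highest with control shRNA, and PHF1 and LCOR are lowest with shE2F1.

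The first comparison asks how the accessory subunits respond when EZH2 itself is depleted. With shEZH2, the PRC2.2 subunit JARID2 and the Polycomb-like gene MTF2 rose, the Polycomb-like gene PHF19 fell to 0.469 of its control level, and EPOP and LCOR rose to a smaller extent. AEBP2 and PHF1 did not pass the test. In RNA pooled from many cells, a lower level in each cell and fewer cells with the transcript cannot be told apart. In counts, 4 of 7 members rose, 1 fell and 2 did not pass at an edgeR adjusted p under 0.05, a threshold passed upwards by 27% and downwards by 28.6% of the 15373 genes tested. The median log2 fold change was 0.39 over the members and -0.023 over all tested genes. Under the stricter rule of the study, an adjusted p under 0.01 and more than a 2-fold change, 2 members (JARID2 and PHF19) were called beside 18.2% of all tested genes.

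JARID2 (chr6:15246069-15522042, plus strand, in GRCh38 coordinates of GENCODE 44, as for all genes here), which helps recruit PRC2 and stimulates its activity, stood at 88.0 and 75.0 CPM with control shRNA and at 180.4 and 205 CPM with shEZH2. Both shEZH2 libraries lay far above each of the other 8 libraries, among which the highest value was 98.6 CPM. The increase was 2.34-fold (log2 fold change 1.23 ± 0.11 SE, edgeR adjusted p = 9.05e-06). On the TPM scale JARID2 was 23.0 and 18.1 TPM with control shRNA and 52.1 and 56.6 TPM with shEZH2. AEBP2 (chr12:19404045-19720801, plus strand), its zinc finger partner in PRC2.2, stood at 37.5 and 39.0 CPM with control shRNA and at 45.0 and 44.4 CPM with shEZH2. These groups did not overlap, but the difference did not pass (log2 fold change 0.21 ± 0.10 SE, edgeR adjusted p = 0.094), and its sign turned to -0.043 after correction for GC content and gene length and to -0.067 with effective gene length as an offset.

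Among the Polycomb-like genes, PHF19 (chr9:120855651-120894896, minus strand) and MTF2 (chr1:93079235-93139079, plus strand) moved in opposite directions. PHF19 stood at 262 and 287 CPM with control shRNA and at 135 and 125 CPM with shEZH2, a drop to 0.469 of the control level (log2 fold change -1.09 ± 0.09 SE, edgeR adjusted p = 6.89e-06). MTF2 stood at 40.5 and 46.4 CPM with control shRNA and at 75.2 and 80.8 CPM with shEZH2, an increase of 1.78-fold (log2 fold change 0.83 ± 0.10 SE, edgeR adjusted p = 6.45e-05). Neither pair of groups overlapped. The share of all tested genes whose CPM separated in this way was not counted for either hairpin. For PHF19 the fall was under 2-fold, though still past an adjusted p of 0.05, after the GC and length correction and with the effective length offset (log2 fold change -0.83 in each). PHF1 (chr6:33410399-33416453, plus strand), the remaining Polycomb-like gene, stood at 82.2 and 76.8 CPM with control shRNA and at 85.5 and 87.3 CPM with shEZH2. The difference of 0.11 ± 0.09 SE on the log2 scale did not pass (edgeR adjusted p = 0.34), whereas the GC and length correction raised it to 0.55 (edgeR adjusted p = 0.00034). PHF1 shares 12 of its 3596 exon bases with CUTA on the opposite strand, and no other member shares exon bases with another gene.

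The alternative partners of PRC2.1 both moved upwards, with less certainty. EPOP (chr17:38671703-38674957, minus strand) had the lowest counts of the 7, at 16.2 and 20.4 CPM with control shRNA and at 25.4 and 23.2 CPM with shEZH2. The rise of 1.31-fold (log2 fold change 0.39 ± 0.14 SE, edgeR adjusted p = 0.031) was lost without control shRNA library 1 (log2 fold change 0.23, edgeR adjusted p = 0.20), without shEZH2 library 1 (0.33, edgeR adjusted p = 0.13), and without shE2F1 library 1 or 2 (0.39 each, edgeR adjusted p = 0.064 and 0.063). It also did not pass with the 4 libraries of the comparison alone (0.39, edgeR adjusted p = 0.068) or with effective gene length as an offset (0.41, edgeR adjusted p = 0.056). It was 0.90 on the log2 scale after the GC and length correction. LCOR (chr10:96832254-96995956, plus strand) stood at 93.1 and 99.6 CPM with control shRNA and at 130 and 140 CPM with shEZH2. The rise of 1.39-fold (log2 fold change 0.48 ± 0.09 SE, edgeR adjusted p = 0.0011) did not hold after the GC and length correction (0.066, edgeR adjusted p = 0.58) and turned to -0.16 with the effective length offset (edgeR adjusted p = 0.48).

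The correction was fitted on GC content and length, so the direction of these shifts follows from its construction and is no separate result. The members richest in G and C, EPOP (64.1%), PHF1 (59.5%) and PHF19 (56.6%), all moved upwards under the correction, and the members poorest in G and C, MTF2 (37.5%), AEBP2 (38.6%) and LCOR (43.0%), all moved downwards. The increase of JARID2 (49.9%) and MTF2 and the decrease of PHF19 passed in all 16 alternatives tried, between 1.12 and 1.35, between 0.64 and 0.94 and between -1.16 and -0.83 on the log2 scale.

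**Figure D2:**
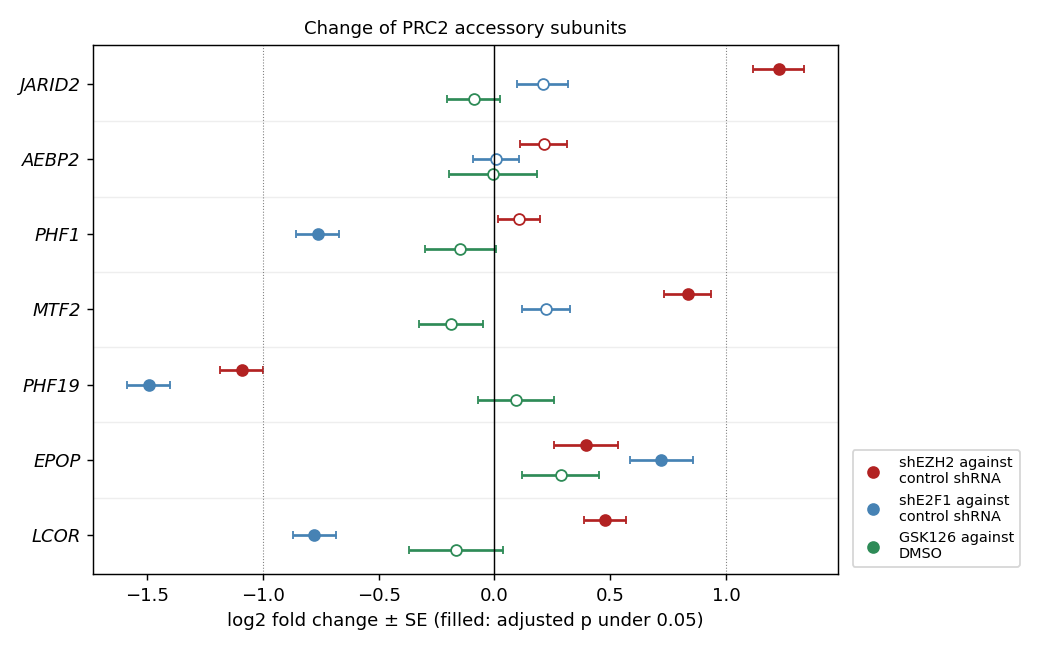
Log2 fold change with its SE (x axis) of the 7 genes in 3 comparisons, from edgeR. Filled points passed an adjusted p of 0.05 over all tested genes, and dotted lines mark a 2-fold change. With shEZH2, 5 genes are filled, with shE2F1 4, and with GSK126 none.

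The second comparison puts shE2F1 cells beside the same 2 control shRNA libraries, so that both hairpin comparisons share their controls. With shE2F1, PHF19, PHF1 and LCOR fell and EPOP rose, while the PRC2.2 pair and MTF2 did not pass the test. Of the 7 members, 1 rose, 3 fell and 3 did not pass at an edgeR adjusted p under 0.05, beside 21.1% of tested genes that passed upwards and 23.7% downwards. The members' median log2 fold change was 0.0068, that of all tested genes -0.00049. PHF19 was the 1 member called under the stricter rule, which called 11.6% of all tested genes.

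PHF19 stood at 99.1 and 97.0 CPM with shE2F1, below each of the other 8 libraries, and 2.81-fold under the control shRNA mean (log2 fold change -1.49 ± 0.09 SE, edgeR adjusted p = 1.56e-06). This decrease passed in all 16 alternatives, between -1.56 and -1.12 on the log2 scale. PHF1 stood at 46.7 and 47.6 CPM, against at least 70.0 CPM in the other 8 libraries. Its fall was to 0.589 of the control level (log2 fold change -0.76 ± 0.09 SE, edgeR adjusted p = 8.52e-05). MTF2, the third Polycomb-like gene, stood at 51.1 and 50.8 CPM, above both control shRNA libraries, yet its difference of 0.22 ± 0.10 SE on the log2 scale did not pass (edgeR adjusted p = 0.099). It passed when genes under a mean of 50 counts were left out (0.27, edgeR adjusted p = 0.044) and without control shRNA library 2 (0.33, edgeR adjusted p = 0.040).

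LCOR stood at 56.8 and 56.3 CPM with shE2F1, the lowest of all groups, and EPOP at 30.7 and 29.9 CPM, the highest of all groups. LCOR fell to 0.584 of control (log2 fold change -0.78 ± 0.09 SE, edgeR adjusted p = 7.09e-05) and EPOP rose 1.65-fold (log2 fold change 0.72 ± 0.14 SE, edgeR adjusted p = 0.0015). Both results, and the fall of PHF1, passed in all 16 alternatives. In PRC2.2, JARID2 stood at 91.0 and 98.6 CPM and AEBP2 at 39.8 and 37.4 CPM. JARID2 differed from control by 0.21 ± 0.11 SE (edgeR adjusted p = 0.14) and AEBP2 by 0.0068 ± 0.10 SE (edgeR adjusted p = 0.96) on the log2 scale. Without control shRNA library 1 the JARID2 difference was 0.33 and passed (edgeR adjusted p = 0.043). Of the 3 members with a motif match shown above, PHF19 fell, and MTF2 and AEBP2 did not pass. PHF1 and LCOR fell without a match in their entries.

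A direct comparison of the 2 hairpins asks where the members differ between shEZH2 and shE2F1 cells. The study reports that shE2F1 suppressed E2F1, whose level in these libraries is not given here. JARID2, PHF1, MTF2, PHF19 and LCOR were all higher with shEZH2 than with shE2F1, and no member passed in the other direction. These 5 of 7 compare with 29.7% of tested genes that were higher and 30.6% that were lower with shEZH2. The difference was largest for LCOR, with 130 and 140 CPM against 56.8 and 56.3 CPM (log2 fold change 1.25 ± 0.09 SE, edgeR adjusted p = 1.44e-06). For JARID2 it was 1.02 ± 0.11 SE (edgeR adjusted p = 1.67e-05), for PHF1 0.87 ± 0.09 SE (edgeR adjusted p = 1.68e-05), and for MTF2 0.61 ± 0.10 SE (edgeR adjusted p = 0.00038). PHF19, low in both hairpin groups, was still 1.32-fold higher with shEZH2 (log2 fold change 0.40 ± 0.09 SE, edgeR adjusted p = 0.0034). Only JARID2 and LCOR were called under the stricter rule, beside 23.3% of all tested genes. JARID2 was just below 2-fold without shEZH2 library 2 (0.93), without shE2F1 library 1 (0.96) and under either change of the filter on low counts (0.99 each). LCOR was below 2-fold after the GC and length correction (0.85) and with the effective length offset (0.49), and JARID2 was at 0.89 and PHF1 at 1.34 after the correction.

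AEBP2 differed between the hairpins by 0.20 ± 0.10 SE (edgeR adjusted p = 0.097) and EPOP by -0.33 ± 0.13 SE (edgeR adjusted p = 0.056). Neither passed. EPOP passed without control shRNA library 1 or 2 (-0.33 each, edgeR adjusted p = 0.027 and 0.027), with the 4 hairpin libraries alone (-0.33, edgeR adjusted p = 0.023), and with either change of the filter on low counts (-0.36 each, edgeR adjusted p = 0.044 and 0.036). Its sign turned to 0.16 after the GC and length correction.

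Inhibition of EZH2 by GSK126 addresses the activity of the enzyme with the protein still in place. None of the 7 members passed the test between GSK126 and DMSO cells, and the edgeR adjusted p was 1.0 for each. The same test passed 0% of 14632 genes upwards and 0% downwards, 577 genes had an unadjusted p under 0.05, and DESeq2 passed 19 genes, no member among them. The lowest unadjusted p of a member was 0.13, for EPOP, in the edgeR fit. With the replicate number as a block, edgeR passed 1990 genes and 2 members, PHF1 and LCOR, on 1 residual degree of freedom. The labels do not say that equal numbers mark a shared culture or day. The SE given below are those of the fit without this block. JARID2 stood at 85.0 and 84.0 CPM with DMSO and at 83.1 and 75.8 CPM with GSK126 (log2 fold change -0.090 ± 0.11 SE). PHF19 stood at 136 and 170 CPM with DMSO and at 143 and 183 CPM with GSK126 (log2 fold change 0.094 ± 0.16 SE). MTF2 stood at 34.1 and 30.9 CPM with DMSO and at 30.4 and 26.8 CPM with GSK126 (log2 fold change -0.19 ± 0.14 SE). Both GSK126 libraries lay below both DMSO libraries for JARID2 and for MTF2, by less than 2 SE in each case, and for PHF19 the groups overlapped.

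EPOP stood at 11.9 and 15.5 CPM with DMSO and at 17.1 and 16.3 CPM with GSK126 (log2 fold change 0.29 ± 0.17 SE). Here both GSK126 libraries lay above both DMSO libraries, again by less than 2 SE. How many of all tested genes separate in this way between DMSO and GSK126 was not counted. The remaining members, AEBP2, PHF1 and LCOR, differed by -0.0059 ± 0.19, -0.15 ± 0.15 and -0.17 ± 0.20 SE on the log2 scale, and their groups overlapped in CPM. Over all 13 alternatives the LCOR value ran from -1.09 to 0.088. In TPM, mean LCOR with GSK126 was 0.474 of DMSO, where it was 12.9 TPM in library 1 and 35.2 TPM in library 2. Library number moved with the levels in this experiment. AEBP2 was 38.5 and 37.3 CPM in libraries 1 of DMSO and GSK126 but 29.1 and 30.2 CPM in libraries 2, LCOR was 93.9 and 82.9 CPM against 69.1 and 62.6 CPM, and PHF19 and PHF1 were higher in libraries 2 of both groups.

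Whether depletion and inhibition differ in effect was tested as a difference of differences over all 10 libraries. JARID2, MTF2 and LCOR had a more positive effect with shEZH2 than with GSK126, and PHF19 a more negative one. Upwards 3 of 7 members passed and downwards 1, beside 16.9% and 19.7% of 15773 tested genes. The difference in log2 effect was 1.33 ± 0.16 SE for JARID2 (edgeR adjusted p = 0.00013), 1.03 ± 0.17 SE for MTF2 (edgeR adjusted p = 0.00074) and -1.17 ± 0.19 SE for PHF19 (edgeR adjusted p = 0.00077). These 3 were also called under the stricter rule, which called 13.8% of all tested genes, but after the GC and length correction or with the length offset MTF2 (0.88 and 0.76) and PHF19 (-0.89 and -0.87) were not. Without GSK126 library 2 neither was called (0.94 and -0.99), and MTF2 was not called without control shRNA library 1, shEZH2 library 2 or DMSO library 1 (0.93, 0.98 and 0.95). For LCOR the difference was 0.65 ± 0.22 SE (edgeR adjusted p = 0.034), and it was lost without any 1 of 8 libraries, both of control shRNA, shEZH2 and shE2F1, DMSO library 1 and GSK126 library 2 (0.41 to 0.70, edgeR adjusted p = 0.053 to 0.16). The LCOR difference also did not hold after the GC and length correction (0.25, edgeR adjusted p = 0.18) or with the length offset (0.94, edgeR adjusted p = 0.17). AEBP2, PHF1 and EPOP did not pass, with differences of 0.23 ± 0.21, 0.27 ± 0.18 and 0.12 ± 0.23 SE. After the GC and length correction PHF1 passed at 0.74 (edgeR adjusted p = 0.00064), and EPOP was at 0.63 (edgeR adjusted p = 0.051). The hairpin cells were transduced and selected and the drug cells were not, so hairpin against drug cannot be told apart from one experiment against the other.

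The base levels of the 2 experiments differed for some members. PHF19 averaged 275 CPM with control shRNA and 153 CPM with DMSO. MTF2 averaged 43.4 and 32.5 CPM and EPOP 18.3 and 13.7 CPM. For these genes the libraries did not overlap, and the share of all genes separated in this way was not counted. JARID2 averaged 81.5 and 84.5 CPM, AEBP2 38.2 and 33.8 CPM, PHF1 79.5 and 87.5 CPM and LCOR 96.3 and 81.5 CPM, with overlap. In the order of the 5 groups, PHF19 ran from control shRNA over GSK126 (163 CPM) and DMSO to shEZH2 (130 CPM) and shE2F1 (98.1 CPM). GSK126 and DMSO overlapped in this order and the other neighbours did not, although the lowest DMSO library (135.7 CPM) nearly met the highest shEZH2 library (135.3 CPM).

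**Figure D3:**
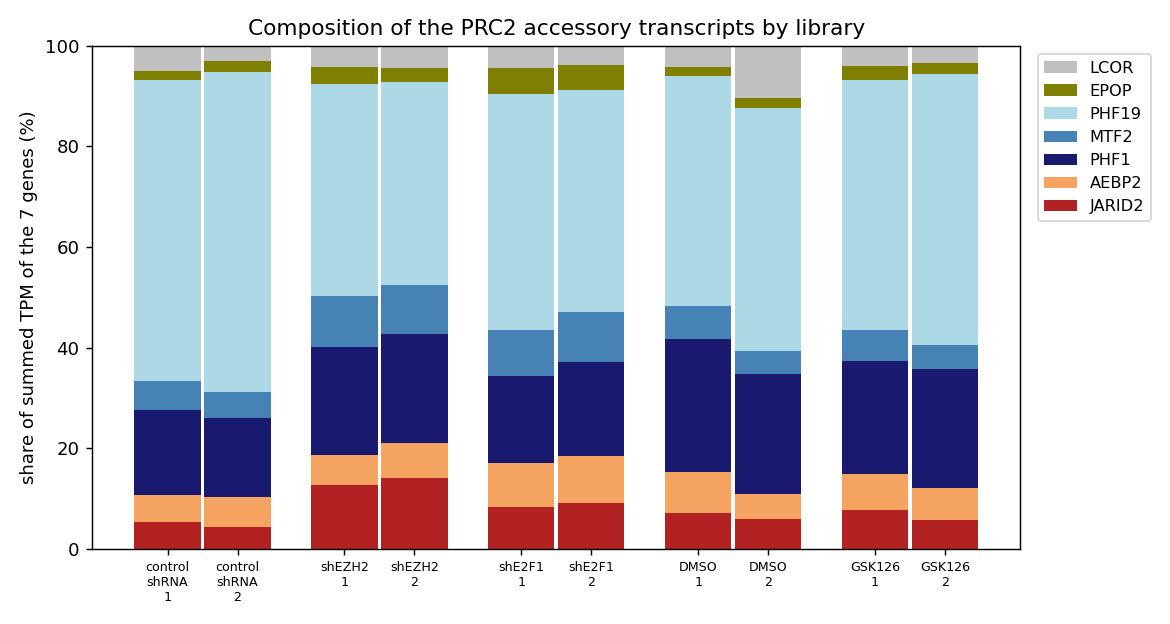
Share of the summed TPM of the 7 genes (y axis, percent) taken by each gene in each library (x axis, group and library number). The share of PHF19 is 59.8 and 63.7% with control shRNA and between 40.3 and 54.0% in the other 8 libraries.

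Levels of different genes can be set side by side only per transcript length, so the makeup of the accessory pool was described in TPM, and no test was made of the shares. PHF19 was the most abundant member in all 10 libraries, from 138 to 269 TPM, followed by PHF1, from 52.4 to 88.4 TPM. EPOP was the least abundant in 8 of 10 libraries, with 5.79 to 15.8 TPM. The genes of PRC2.2, JARID2 and AEBP2 together, made up 10.8 and 10.4% of accessory TPM with control shRNA, 18.7 and 21.0% with shEZH2 and 17.0 and 18.5% with shE2F1. The shEZH2 and shE2F1 libraries lay above both control shRNA libraries. With shE2F1 neither JARID2 nor AEBP2 passed the test on counts, and a share also grows as other members fall. PHF19 averaged 262 TPM with control shRNA, 168 TPM with shEZH2 and 140 TPM with shE2F1. The PRC2.2 share was 15.3 and 10.9% with DMSO and 14.9 and 12.0% with GSK126, with overlap. JARID2 alone took 5.40 and 4.30% with control shRNA and 12.7 and 14.1% with shEZH2, whereas AEBP2 took 5.36 and 6.07% and then 6.06 and 6.88%.

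The sum of the 7 genes was 425 and 422 TPM with control shRNA, 411 and 401 TPM with shEZH2 and 303 and 313 TPM with shE2F1. The core subunit SUZ12, on which the accessory subunits dock, was at 43.6 and 47.8 TPM, 57.1 and 53.4 TPM, and 53.4 and 57.2 TPM in the same groups. In the test on TMM-scaled counts, SUZ12 did not pass with shEZH2 (log2 fold change 0.074, edgeR adjusted p = 0.54). It did not pass with shE2F1 either (0.072, edgeR adjusted p = 0.57). Per TPM of SUZ12, accessory transcripts came to 9.75 and 8.82 with control shRNA, 7.20 and 7.52 with shEZH2 and 5.67 and 5.48 with shE2F1. With DMSO these ratios were 7.49 and 10.7 and with GSK126 7.18 and 11.4, so that libraries of the same number resembled each other more than libraries of the same treatment. RNA levels do not give the number of complexes.

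**Figure D4:**
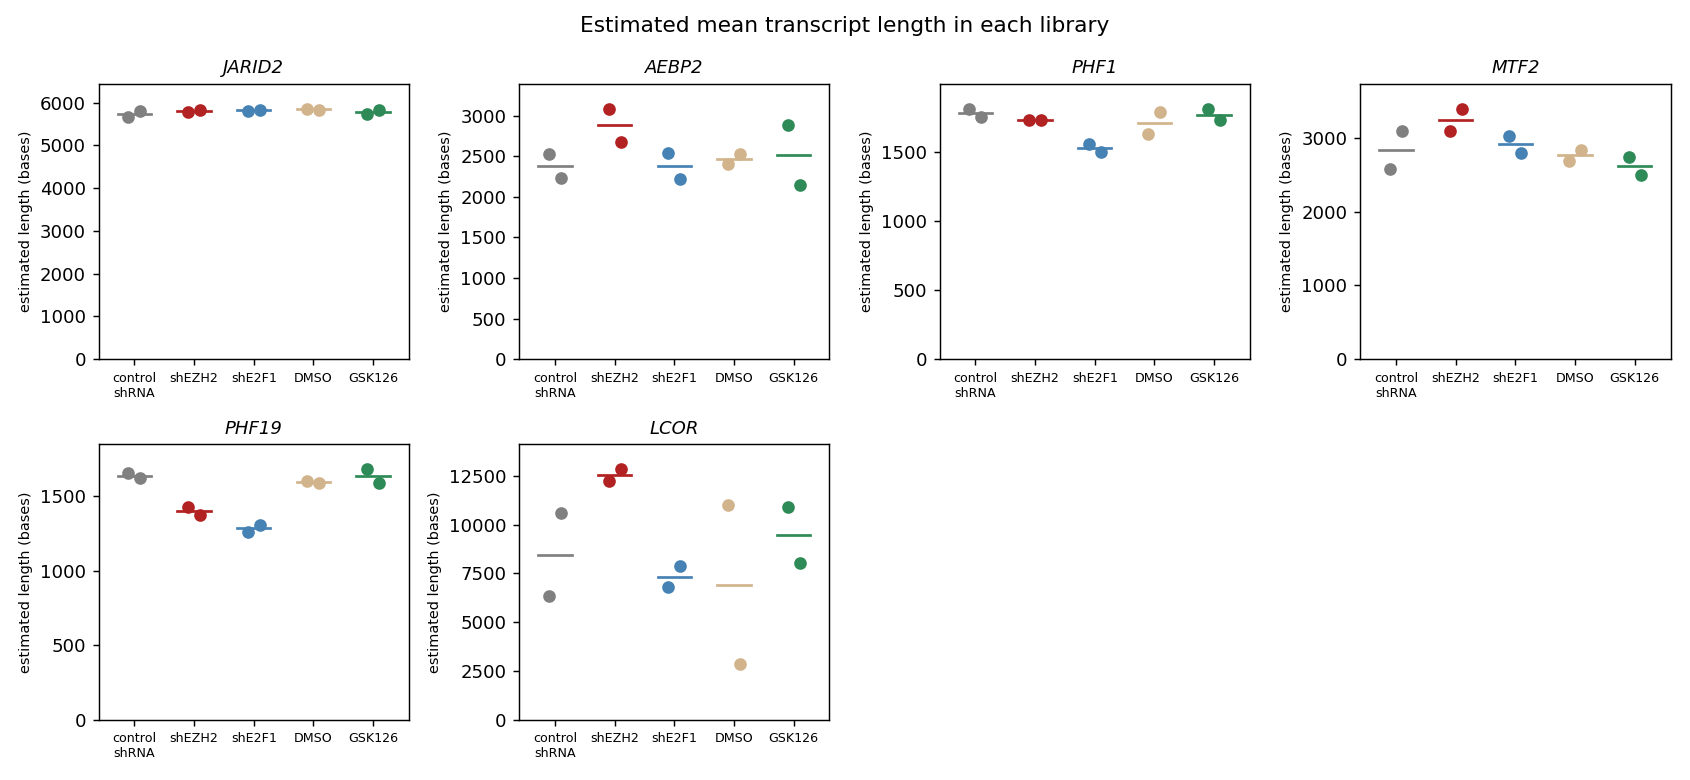
Estimated mean transcript length in bases (y axis, from 0) of the 6 genes with more than 1 annotated transcript, in each library by group (x axis). Points are libraries and bars are means of 2 libraries. For PHF19 the shEZH2 and shE2F1 groups lie below all other libraries, and for LCOR the 2 libraries of control shRNA and those of DMSO lie far apart.

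The files also give the mean length of a gene's transcripts, weighted by the estimated abundance of each isoform, a measure apart from the gene's total count. For PHF19, with 14 annotated transcripts of 506 to 4149 bases, it was 1653 and 1620 bases with control shRNA, 1429 and 1373 bases with shEZH2 and 1260 and 1308 bases with shE2F1. In DMSO and GSK126 cells it was 1601, 1589, 1679 and 1590 bases. The shEZH2 and shE2F1 libraries thus lay below all other libraries, by 0.22 ± 0.05 and 0.35 ± 0.04 (SD) on the log2 scale against control shRNA. In TPM, which divide by this length, PHF19 in shEZH2 cells was 0.641 of control, and in shE2F1 cells 0.536. PHF1 was estimated at 1814 and 1754 bases with control shRNA, 1734 and 1731 bases with shEZH2, and 1561 and 1500 bases with shE2F1. Both genes lay below the control libraries with each hairpin, and no test was made of this measure.

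Estimates above both control libraries were seen with shEZH2 for AEBP2 (3089 and 2679 bases against 2530 and 2239), LCOR (12222 and 12835 against 6327 and 10609) and MTF2 (3093 and 3397 against 2584 and 3091). With shE2F1 this held for JARID2 alone (5818 and 5827 bases against 5661 and 5802). Of the 13296 tested genes with several transcripts, 21.3% lay below and 22.7% above both control libraries with shEZH2, and 25.6% below and 15.5% above with shE2F1, so such separation of 2 from 2 libraries was common. LCOR, with 29 annotated transcripts, was the least settled estimate. It ranged from 2848 bases in DMSO library 2 to 12835 bases in shEZH2 library 2, and its TPM in DMSO library 2 was 35.2 against 12.9 in DMSO library 1, although its expected count was lower (1222 against 1873). LCOR levels in TPM are therefore less certain than its counts. JARID2 varied least, between 5661 and 5862 bases, and EPOP has a single annotated transcript of 3255 bases.

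**Figure D5:**
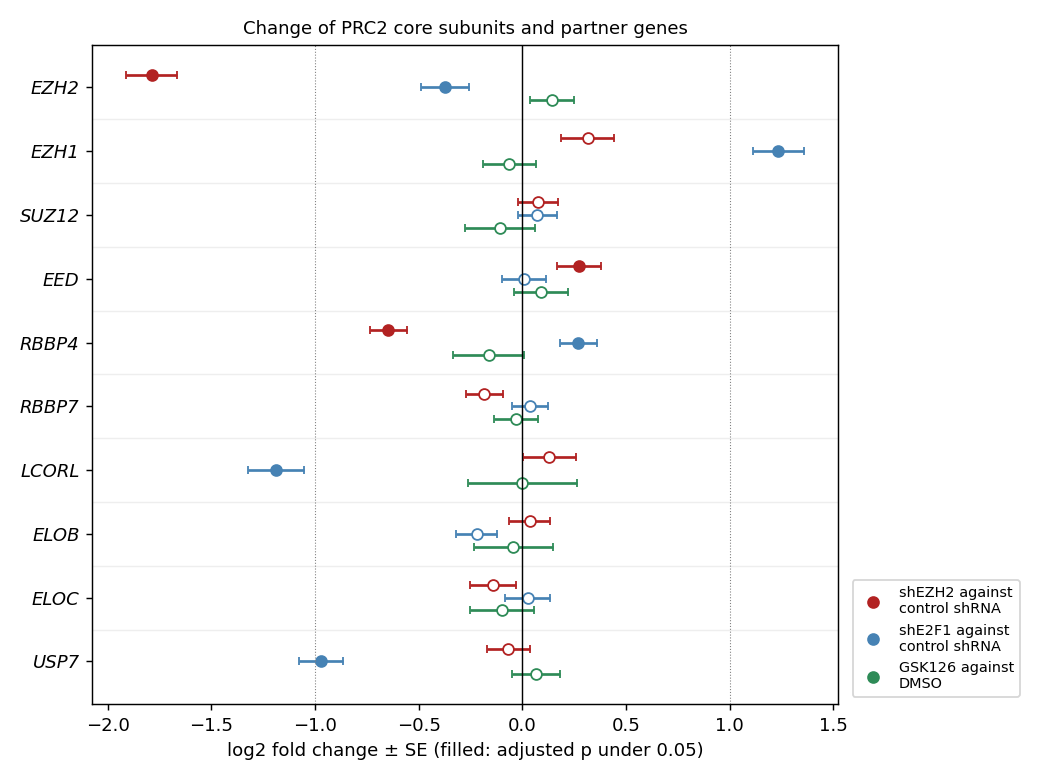
Log2 fold change with its SE (x axis) of PRC2 core subunits and partner genes in 3 comparisons, from edgeR. Filled points passed an adjusted p of 0.05, and dotted lines mark a 2-fold change. EZH2 is lowest with shEZH2, and LCORL and USP7 passed downwards with shE2F1 and did not pass with shEZH2.

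Around the members, 11 further PRC2 genes were examined as a fixed list, of which EZHIP, an inhibitor of the complex in germ cells, had no count in any library and 10 were tested. With shEZH2, 1 of these 10 rose and 2 fell, beside 27% of tested genes that passed upwards and 28.6% downwards. The targeted EZH2 fell to 0.289 of control (log2 fold change -1.79 ± 0.12 SE, edgeR adjusted p = 2.40e-06), RBBP4 fell (-0.65 ± 0.09 SE, edgeR adjusted p = 0.00015), and EED rose just past the threshold (0.27 ± 0.11 SE, edgeR adjusted p = 0.0496). SUZ12, at 131 and 152 CPM with control shRNA and 152 and 147 CPM with shEZH2, did not pass (0.074 ± 0.10 SE).

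With shE2F1, 2 of the 10 rose and 3 fell, beside 21.1% of tested genes upwards and 23.7% downwards. EZH1, the alternative methyltransferase, rose 2.35-fold from 32.2 and 27.9 CPM to 65.6 and 76.9 CPM (log2 fold change 1.24 ± 0.12 SE, edgeR adjusted p = 2.50e-05), and RBBP4 rose 1.21-fold (edgeR adjusted p = 0.029). LCORL, the paralog of LCOR that encodes PALI2, fell from 19.6 and 21.4 CPM to 9.21 and 8.85 CPM (log2 fold change -1.19 ± 0.13 SE, edgeR adjusted p = 5.36e-05). USP7, a deubiquitinase that has been linked to EPOP, fell from 136 and 159 CPM to 76.3 and 74.5 CPM (-0.97 ± 0.11 SE, edgeR adjusted p = 4.24e-05), and EZH2 fell to 0.771 of control (edgeR adjusted p = 0.023). The study reports increased EZH2 after E2F1 knockdown from protein blots, a measure unlike the RNA level given here. The elongins ELOB and ELOC, which EPOP binds, did not pass with either hairpin. With GSK126, none of the 10 passed, at an edgeR adjusted p of 1.0 each, between -0.16 for RBBP4 and 0.14 for EZH2 on the log2 scale.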

How the data were processed

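Per the labels, mRNA libraries of MDA-MB-231 cells were made with a directional kit. The submitters' processing notes name STAR 2.7.2b, RSEM 1.3.1 and GRCh38, and the methods of the study name another STAR release. The authors deposited RSEM expected counts, estimated counts in which a read shared by genes is divided, for 62703 Ensembl genes. The deposited TPM and the estimated transcript lengths, an isoform-weighted mean, are by the authors too. Deposited FPKM and posterior mean values were not used. Of 18 records, 8 hold the values of another record and were dropped. Use of strand in counting is not given in the sources used here. Names and coordinates came from GENCODE 44, which held 62625 (99.9%) of the identifiers.

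Expected counts were rounded and fitted with edgeR 4.0.16 in R 4.3.3 (TMM, quasi-likelihood test, filterByExpr), with 6 hairpin libraries, 4 drug libraries, or all 10 for the difference of effects. SE is the log2 fold change divided by the root of F. Benjamini-Hochberg adjustment covered all tested genes. Alternatives were DESeq2 1.42.0, its size factors, other filters, other sets of libraries, the replicate number as a block, splines of GC content and length, the effective length as an offset, and each library left out. The steps were tested on simulated data. Depth, 13198932 to 20055550 expected counts, gave every member at least 237 counts, and the posterior SD of members' counts was 0. The members, lists and tests were chosen with earlier results of these data known. All 7 members were named in every comparison, and similar genes were the 2 most correlated protein-coding genes of each, of which 1 is not reported here.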

Additional observations from a re-analysis of the deposited data

Results flagged for a closer look

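No group held enough libraries for a test of outlying values. The effect of 5 members differed between the shEZH2 and shE2F1 hairpins, and that of 4 members between shEZH2 and GSK126, each in an edgeR test of the difference itself. Of all tested genes, 29.7% were higher and 30.6% lower with shEZH2 than with shE2F1, and 16.9% and 19.7% passed between shEZH2 and GSK126. Between the hairpins, the log2 effect with shEZH2 exceeded that with shE2F1 by 1.02 for JARID2, 0.87 for PHF1, 0.61 for MTF2, 0.40 for PHF19 and 1.25 for LCOR. For LCOR the effects had opposite signs, 0.48 with shEZH2 and -0.78 with shE2F1, and the former did not hold after the GC and length correction (0.066). Between depletion and inhibition, the log2 effect of shEZH2 minus that of GSK126 was 1.33 for JARID2, 1.03 for MTF2, -1.17 for PHF19 and 0.65 for LCOR. Here hairpin and drug cells belong to separate experiments, and the LCOR difference was lost without any 1 of 8 libraries, after the GC and length correction (0.25, edgeR adjusted p = 0.18) and with the length offset (0.94, edgeR adjusted p = 0.17).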

How the results depend on the processing

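The number of members that passed was within 1.5 times the count reported under most alternatives. With shEZH2 it was 5, and 3 with the effective length offset. Under an adjusted p under 0.01 and a 2-fold change it was 2 with shEZH2, 1 with shE2F1 and 2 between the hairpins, where it was 1 under either change of the filter, the GC and length correction or the length offset, and without shEZH2 library 2 or shE2F1 library 1. For the difference of effects it was 3, and 1 after that correction, with the offset or without GSK126 library 2. Leaving out each library in turn gave 4 to 5 of 7 with shEZH2, 4 to 5 with shE2F1, 5 to 6 between the hairpins, 0 with GSK126 and 3 to 4 for the difference of effects.

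Replicate numbers are not said to mark a shared culture or day. Deviations of equal numbers correlated at 0.66 between DMSO and GSK126 over 11919 genes and at 0.04 to 0.20 between hairpin groups. With the replicate number as a block, 2 members passed with GSK126, PHF1 (-0.15, edgeR adjusted p = 0.031) and LCOR (-0.16, edgeR adjusted p = 0.019), beside 1990 of all genes (0 without it, 5 in the fit of all 10 libraries and 19 by DESeq2), on 1 residual degree of freedom. With the block and the GC and length correction together 3 passed, JARID2 (-0.13, edgeR adjusted p = 0.047) added. For the difference of effects, EPOP was at 0.63 (edgeR adjusted p = 0.051) after the GC and length correction and passed with the block added (0.64, edgeR adjusted p = 0.048). The block changed no other call of a member.

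The sign turned for members that did not pass, with 1 exception, LCOR with shEZH2 (-0.16 with the effective length offset), which divides by a length estimate of 6327 to 12835 bases in the 4 libraries compared. AEBP2 with shEZH2 was -0.043 after the GC and length correction, -0.042 with the block added to it, and -0.067 with the length offset. With shE2F1 it was -0.013 with that offset and -0.042 to 0.051 as libraries were left out. Between the hairpins it was -0.052, -0.051 and -0.054 under these 3 settings in turn, and for the difference of effects -0.025, -0.027 and -0.022. With GSK126 it was 0.0023 when genes under a mean of 50 counts were left out. EPOP between the hairpins was 0.16 after the GC and length correction, with or without the block. Without single libraries, the GSK126 values ran from -0.20 to 0.23 for AEBP2, -0.32 to 0.0069 for PHF1, -0.088 to 0.26 for PHF19 and -0.38 to 0.088 for LCOR, and the EPOP difference of effects from -0.087 to 0.30. The cause of these shifts was not tested.

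The share of PRC2.2 genes, computed from expected counts, which do not correct for length, was 19.0% with control shRNA, 34.3% with shEZH2, 32.0% with shE2F1, 24.4% with DMSO and 24.0% with GSK126. Without LCOR the control shRNA share was 11.0%. With single libraries left out, shares ran from 10.4 to 10.8%, 18.7 to 21.0%, 17.0 to 18.5%, 10.9 to 15.3% and 12.0 to 14.9% in the same order of groups. With effective length in place of length, no change in estimated length against its control group moved beyond its SD. Leaving out single libraries could not move a change beyond that SD, because each group held only 2 libraries. Those alternatives therefore say nothing about stability, and some of the changes turned sign under them. The depth limits EPOP most, with 237 to 640 counts a library.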

Other observations

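For each member, the protein-coding genes whose log2 CPM followed it most closely over the 10 libraries were listed among 9271 candidates, as a description in which all points share the same 5 groups. JARID2 was followed by ACVR2B (r = 0.992), a receptor for activins, and HIPK3 (0.990), a nuclear kinase. MTF2 was followed by LIN54 (0.989), the DNA-binding subunit of the MuvB complex, and LRRC58 (0.988). PHF19 was followed by CEP85 (0.989), a centrosomal protein, and CENPA (0.987), the histone H3 variant of centromeres. LCOR was followed by HELZ (0.995). PHF1 was followed by KCNN4 (0.985), a calcium-activated potassium channel, and GUCD1 (0.976), EPOP by DBNDD2 (0.978) and OSGIN1 (0.964), and AEBP2 by GTPBP10 (0.959) and ATP6V1A (0.957), a subunit of the vacuolar proton pump.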
